A study of Mus musculus with 9 samples.

Results

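Sox1, Sox2, Sox3, Sox5, Sox6, Sox9, Sox21, Pou3f2 and Pou3f3 are transcription factor genes of neural progenitor cells, and their RNA was followed in primary mouse embryonic neural stem cells after Phf2 was targeted by short hairpins. Ensembl identifiers of a deposited gene count table were matched to these symbols, which gave 9 of 54232 genes. All 9 of these genes passed the filter on low counts, among 17602 genes tested. The cells, labelled as coming from the subventricular zone of the brain, grew on laminin with fibroblast growth factor and epidermal growth factor. One group received a non-targeting hairpin (shNT), and the other groups received sh900 or sh902, a pair of hairpins against Phf2, a member of the KDM7 family of histone demethylase proteins. RNA was collected on day 3 after treatment, with 3 libraries in each of 3 groups. In each group 1 library carried no date in its title, 1 carried 30 August and 1 carried 3 September, and what these labels mark is not stated. The labels do not say that the libraries of a group are separate cultures or mice; a p-value here covers only the spread among libraries, and that spread may be technical. The sources used here name no strain, age or vector.

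Sox proteins bind DNA through a high mobility group box, and POU proteins through a POU domain joined to a homeodomain; the families often bind next to each other. Sox1, Sox2 and Sox3 form the SoxB1 group, which keeps neural progenitors undifferentiated, whereas Sox21, of the SoxB2 group, acts mainly as a repressor and counters SoxB1 activity. Sox5 and Sox6, of the SoxD group, lack a transactivation domain and act with other factors, including the SoxE protein Sox9, which supports stem cell maintenance and the switch to glial fates. Pou3f2 (Brn2) and Pou3f3 (Brn1) are class III POU factors that act partly redundantly in cortical progenitors and can partner Sox2.

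Libraries held between 23212472 and 32392496 counts in total. Values below are CPM, counts divided by the library total and scaled by edgeR's TMM factors, and values in parentheses after a mean are SD over the 3 libraries of a group. Phf2 itself stood between 48.7 and 56.3 CPM in the shNT libraries, between 14.9 and 25.5 CPM with sh900 and between 17.0 and 28.1 CPM with sh902, so every hairpin library lay below every control. Neural stem cell markers were present, with Nes between 114 and 1968 CPM over the 9 libraries. Of 8 microglia and leukocyte markers 0 reached 1 CPM on average over all libraries, and C1qa was at 0 in every library. Foxj1, an ependymal gene, was found at 92.2 to 178 CPM, while all 6 ependymal markers together summed to only 99.7 to 190 CPM. Of these 6, 4 reached 1 CPM on average over all libraries, and Tmem212 was at 0 in every sh900 and sh902 library. Fewer cells of a type and less RNA per cell cannot be told apart in these bulk libraries.

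Set against exon length, Sox2 was the most abundant of the 9 genes, at a mean of 118.8 (SD 35.1, n = 9 libraries) CPM per kb of merged exon. It exceeded Sox21, the next gene, in 9 of 9 libraries, and their ranges did not overlap. Sox21 (47.5 CPM per kb), Sox9 (46.8), Pou3f3 (43.3) and Sox3 (42.1) followed at levels that did not differ beyond their spread; Sox21 exceeded Sox9 in 6 of 9 libraries, Sox9 exceeded Pou3f3 in 4 of 9 and Pou3f3 exceeded Sox3 in 4 of 9. Sox1 stood below Sox3 in 9 of 9 libraries, at 20.4 CPM per kb. Its nearest neighbour Sox6 was at 16.2 CPM per kb and lay below Sox1 in 6 of 9 libraries. Pou3f2 (9.56 CPM per kb) and Sox5 (4.54 CPM per kb) closed the order, each below the gene before it in 9 of 9 libraries. The merged exon lengths of Sox5 (14376 bases) and Sox6 (14832 bases) join exons of many isoforms, so their levels per kb are understated for any 1 transcript. In plain CPM, Pou3f3, Sox2 and Sox6 lay at the 97.5, 96.3 and 96.2 percentiles of the genes tested, and Pou3f2 at the 74.3 percentile.

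**Figure D1:**
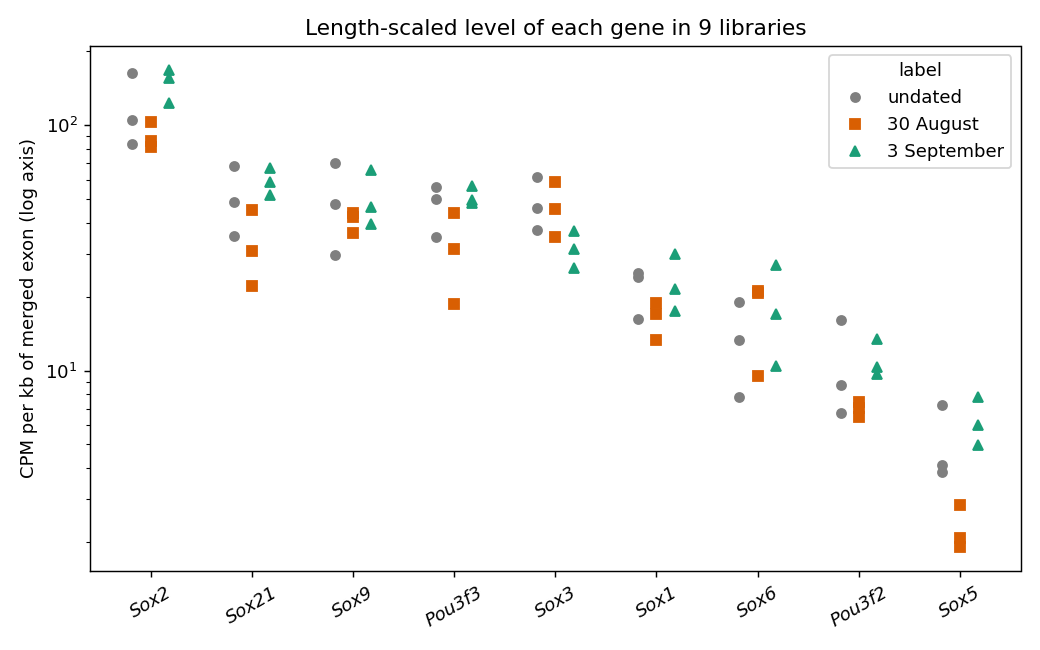
Levels of the 9 genes in CPM per kb of merged exon (log axis), 1 point per library (n = 9), with colour and symbol for the undated, 30 August and 3 September labels. Sox2 stands above all others, with a lowest library at 81.2 CPM per kb against a highest of 70.0 for Sox9 and 68.4 for Sox21.

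The main comparison asked whether these genes differ when Phf2 is lowered, with both hairpins weighed equally against shNT. In edgeR's quasi-likelihood test without a term for the title label, 0 of 17602 genes passed an adjusted p of 0.05, and so 0 of the 9 members. There 2809 genes, 4 of the members among them, had an unadjusted p under 0.05. DESeq2 called 755 genes, Sox6 among them, and limma-voom 0. By edgeR without that term Phf2 itself did not pass either, at -1.28 ± 0.20 (SE, adjusted p = 0.182) on the log2 scale. With the label as a replicate block Phf2 passed, at -1.32 ± 0.16 (SE, adjusted p = 0.00519). Of the members, Sox3, Sox5 and Sox6 fell with the block, and 0 of the 9 rose. In that fit 5.59% of all genes tested passed as lower and 6.08% as higher. The median log2 fold change of the 9 genes was -0.50 with the block, against -0.02 for all genes tested. All 9 values were negative, as were those of 9151 of the 17602 genes tested. The values of Sox1 (-0.12 ± 0.12, SE) and Pou3f3 (-0.06 ± 0.16, SE) were small, and their sign changed in some other fits. Taking each hairpin library against the shNT library of its own label, Sox3, Sox5, Sox9 and Pou3f2 were lower in 6 of 6 pairs, a pattern found for 12% of all genes. Here and in the block, the undated libraries are paired only by their lack of a date, and no title says that they belong together. Sox2, Sox6 and Sox21 were lower in 5 of 6 pairs, Sox1 in 4 and Pou3f3 in 3. No member had its 6 hairpin libraries all below its 3 controls, where 3.03% of all genes did, and no member had its sh900 libraries all below its controls, where 8.82% of all genes did. Both hairpins were set against the same shNT libraries, so the sh900 and sh902 comparisons are not independent of each other.

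**Figure D2:**
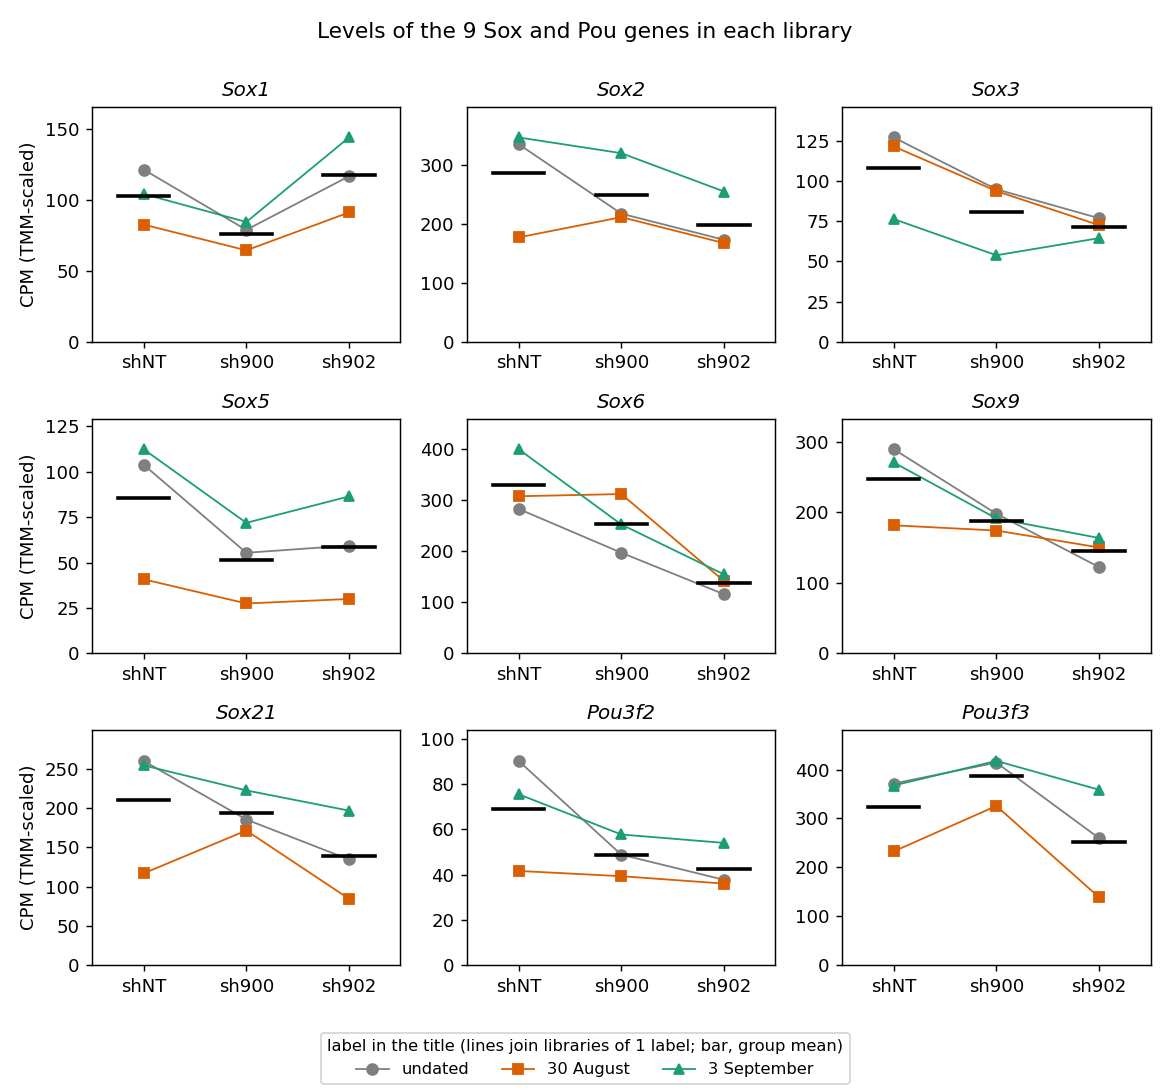
CPM of each of the 9 genes in each library, by hairpin group, with symbols for the undated, 30 August and 3 September labels, lines joining libraries of 1 label and a black bar at the mean of each group. Sox6 with sh902 lies between 116 and 155 CPM, below the other 6 libraries (197 to 400.1 CPM), and Sox9 with sh902 (122 to 164 CPM) lies below its other libraries, while the sh902 and shNT libraries of the other 7 genes overlap.

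Of the SoxB1 genes, with the block, Sox3 fell in the mean of both hairpins and Sox1 differed between the hairpins. Sox2 did not pass in any hairpin comparison by edgeR with all 9 libraries. Sox3 (ENSMUSG00000045179, chromosome X, 60891366 to 60893430 on GRCm38, minus strand) had shNT values of 127 CPM (undated), 122 CPM (30 August) and 76.5 CPM (3 September). In the same order it stood at 95, 93.9 and 53.9 CPM with sh900 and at 76.9, 72.6 and 64.6 CPM with sh902. At each label both hairpin libraries lay below the control, although the 3 September control lay below 2 of the sh900 libraries and 1 of the sh902 libraries. Averaged over the hairpins, its log2 fold change was -0.50 ± 0.13 (SE, adjusted p = 0.0452) with the block, and -0.51 ± 0.22 (SE, adjusted p = 0.311) when no block was used. That call was close to the threshold, and it held only when the 3 September sh902 library was left out; leaving out any 1 of the other 8 libraries gave adjusted p from 0.0679 (30 August sh902) to 0.193 (undated shNT). With the block, sh902 alone gave -0.56 ± 0.15 (SE, adjusted p = 0.0533) in edgeR, and DESeq2 (0.0316) and limma-voom (0.0408) with the same block called it.

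Sox2 (ENSMUSG00000074637, chromosome 3, 34650405 to 34652461, plus strand) is the SoxB1 factor used as a general marker of neural stem cells. Its shNT libraries held 335, 177 and 346 CPM in the order undated, 30 August and 3 September. The sh900 libraries held 217, 211 and 319 CPM, and the sh902 libraries 173, 167 and 254 CPM. The 30 August control lay between the hairpin libraries of that label, whereas the other 2 controls were above all 6 hairpin libraries. Averaged over the hairpins, the blocked log2 fold change was -0.34 ± 0.16 (SE, adjusted p = 0.195), with -0.18 ± 0.19 (SE) for sh900 and -0.51 ± 0.19 (SE, adjusted p = 0.116) for sh902. Sox2 lies within the span of the same-strand transcript Sox2ot and shares 0 exon bases with it; Sox2ot was at 19.3 to 46.1 CPM.

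Sox1 (ENSMUSG00000096014, chromosome 8, 12395295 to 12400126, plus strand), an early neuroectoderm gene, stood at 121, 82.5 and 104 CPM with shNT, at 78.7, 64.3 and 84.3 CPM with sh900 and at 116.5, 91.0 and 144 CPM with sh902, each in the order undated, 30 August and 3 September. Every sh902 library lay above every sh900 library, and the controls overlapped both. The blocked log2 fold change was -0.43 ± 0.14 (SE, adjusted p = 0.0873) for sh900 and 0.18 ± 0.14 (SE, adjusted p = 0.42) for sh902. Compared directly, Sox1 was higher with sh902 than with sh900 by 0.62 ± 0.14 (SE, adjusted p = 0.0473) on the log2 scale with the block. Sox1ot is a same-strand transcript that spans Sox1 and shares 0 exon bases with it. It stood at 10.5 to 15.1 CPM with shNT against 2.46 to 8.84 CPM with sh900, lower without overlap, as were 8.82% of all genes. With sh902 its libraries ranged from 3.03 to 18.3 CPM.

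With the block the SoxD genes fell, Sox6 mainly with sh902 and Sox5 with either hairpin. Sox6 (ENSMUSG00000051910, chromosome 7, 115470872 to 116038796, minus strand) had shNT values of 283 CPM (undated), 308 CPM (30 August) and 400.1 CPM (3 September). In the same order it stood at 197, 312 and 253 CPM with sh900 and at 116, 142 and 155 CPM with sh902. All 3 sh902 libraries lay below all other libraries, at 40.9%, 46.0% and 38.7% of the control of the same label, while the 30 August sh900 library was at 101.4% of its control. For sh902 the blocked log2 fold change was -1.27 ± 0.16 (SE, adjusted p = 0.00741), and for sh900 it was -0.39 ± 0.15 (SE, adjusted p = 0.156). For both hairpins together it was -0.83 ± 0.13 (SE, adjusted p = 0.0101), against -0.82 ± 0.18 (SE, adjusted p = 0.185) by edgeR without the block. Without the block DESeq2 called Sox6 for the mean (adjusted p = 0.00895) and for sh902 (0.000105), and limma-voom called 0 genes in either. In edgeR with the block, leaving out the undated sh902 library gave adjusted p = 0.0583 for sh902. Leaving out the undated shNT library gave 0.0644 for the mean, and both calls held without any 1 of the other 8.

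Sox5 (ENSMUSG00000041540, chromosome 6, 143828425 to 144781977, minus strand) stood at 104, 40.8 and 112 CPM with shNT, at 55.4, 27.5 and 71.8 CPM with sh900 and at 59.3, 29.95 and 86.3 CPM with sh902. Within every label both hairpin libraries were below the control, but the labels lay so far apart that the groups overlapped. Relative to the control of the same label, the undated, 30 August and 3 September libraries held 53.3%, 67.4% and 63.9% with sh900 and 57.2%, 73.4% and 76.9% with sh902. With the block the log2 fold change was -0.71 ± 0.13 (SE, adjusted p = 0.0196) for sh900, -0.55 ± 0.13 (SE, adjusted p = 0.0384) for sh902 and -0.63 ± 0.11 (SE, adjusted p = 0.0134) for their mean, which without the block was -0.64 ± 0.43 (SE, adjusted p = 0.465). Sox5 was the only member called with both hairpins; with sh900 3.45% of all genes were called lower and 5.39% higher, and with sh902 5.39% lower and 5.12% higher. The mean was not called without the undated shNT (adjusted p = 0.0842), undated sh900 (0.061) or undated sh902 library (0.0546). The sh900 call was lost without the undated control (0.0811) or without any 1 of the 3 sh900 libraries (0.0544 to 0.156), and the sh902 call held only without the 30 August control, with 0.066 to 0.214 in the other 8 fits. Sox5os1, an antisense transcript that shares 1330 exon bases with Sox5, did not exceed 0.77 CPM, and reads of the strands cannot be told apart here.

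Stretches before RefSeq starts of the SoxD genes are shown because these genes fell with the block and because Sox proteins are known to bind the letters ACAAAG and ACAATG. They come from RefSeq on GRCm38.p6, written 5′ to 3′ on the gene's strand, with matches on either strand in capitals. The Sox5 stretch, chr6:143947107-143947356 (minus strand), lies before a start inside the Ensembl gene, far from the gene's 5′ end at 144781977. It is not upstream of the whole gene, and use of that start was not measured. The Sox6 stretch, chr7:116038797-116038994 (minus strand), covers bases -250 to -53 from the most upstream of 6 RefSeq starts of Sox6 in the table.
Sox5: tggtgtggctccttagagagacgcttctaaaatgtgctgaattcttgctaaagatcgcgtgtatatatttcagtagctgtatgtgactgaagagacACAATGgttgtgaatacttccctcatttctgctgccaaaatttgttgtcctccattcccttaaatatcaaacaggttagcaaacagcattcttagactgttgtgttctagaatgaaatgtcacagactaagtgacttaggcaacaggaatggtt
Sox6: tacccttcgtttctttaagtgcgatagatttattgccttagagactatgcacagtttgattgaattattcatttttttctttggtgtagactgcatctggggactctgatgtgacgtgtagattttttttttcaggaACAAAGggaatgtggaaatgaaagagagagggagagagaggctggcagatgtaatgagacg
Sox5 held ACAATG with its first base at -154, and the Sox6 stretch shown held ACAAAG at -113. Of the 6 Sox6 windows, of 187 to 250 bases, 5 held ACAAAG on either strand and 2 held ACAATG, so the match shown is 1 of several. Among 32851 upstream windows of RefSeq genes, ACAATG was found in 10.7% of windows of 250 bases and ACAAAG in 13.4% of windows of 198 bases. The matches are letters in a window, and binding there was not measured.

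Sox9, the SoxE gene, was called lower with sh902 by edgeR with the block. Without the block its log2 fold change for sh902 was -0.77 ± 0.20 (SE, adjusted p = 0.179) by edgeR. There DESeq2 called it (adjusted p = 0.0227) and limma-voom did not. Sox9 (ENSMUSG00000000567, chromosome 11, 112782224 to 112787760, plus strand) had shNT values of 289.5 CPM (undated), 182 CPM (30 August) and 271 CPM (3 September). In the same order it stood at 198, 174 and 191 CPM with sh900 and at 122, 150.2 and 164 CPM with sh902. Every sh902 library lay below every control and below every sh900 library, while sh900 overlapped the controls through the 30 August control. The blocked log2 fold change was -0.75 ± 0.18 (SE, adjusted p = 0.0404) for sh902, -0.38 ± 0.18 (SE, adjusted p = 0.22) for sh900 and -0.56 ± 0.15 (SE, adjusted p = 0.0521) for their mean, which DESeq2 (0.0252) and limma-voom (0.0482) with the block called. The sh902 call held without the 30 August shNT or the 30 August sh902 library, and leaving out any 1 of the other 7 gave adjusted p from 0.0674 to 0.198. Sox6 and Sox9 were the members whose sh902 and shNT libraries did not overlap, where 10.9% of all genes were lower without overlap.

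Sox21, the SoxB2 gene, did not pass in any hairpin comparison by edgeR with all 9 libraries. Sox21 (ENSMUSG00000061517, chromosome 14, 118233232 to 118237030, minus strand) stood at 259.7, 117 and 254 CPM with shNT, at 185, 171 and 222 CPM with sh900 and at 134, 84.4 and 196.5 CPM with sh902. On 30 August the sh900 library was above its control, whereas the other 2 sh900 libraries and all 3 sh902 libraries were below theirs. The blocked log2 fold change was -0.04 ± 0.21 (SE, adjusted p = 0.932) for sh900 and -0.60 ± 0.21 (SE, adjusted p = 0.105) for sh902. An antisense gene, Gm4675, shares 713 exon bases with Sox21 and was at 3.22 to 8.47 CPM.

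Pou3f2 and Pou3f3, the class III POU genes, did not pass in any hairpin comparison by edgeR with all 9 libraries, and some calls depended on the tool. Pou3f2 (ENSMUSG00000095139, chromosome 4, 22482780 to 22488366, minus strand) stood at 90.2, 41.6 and 75.5 CPM with shNT, at 48.8, 39.3 and 57.7 CPM with sh900 and at 37.7, 36.0 and 54.0 CPM with sh902. All 6 hairpin libraries were below the control of their label, and the 30 August control was within the range of the hairpin libraries. Its blocked log2 fold change was -0.57 ± 0.17 (SE, adjusted p = 0.066) for the mean of both hairpins and -0.66 ± 0.20 (SE, adjusted p = 0.0722) for sh902. With the same block DESeq2 called both (0.0411 and 0.0398) and limma-voom neither (0.0598 and 0.0591). Pou3f3 (ENSMUSG00000045515, chromosome 1, 42695768 to 42703176, plus strand) stood at 371, 232.5 and 367 CPM with shNT, at 414, 326 and 418 CPM with sh900 and at 259.6, 139 and 359 CPM with sh902. Every sh900 library was above the control of its label and every sh902 library below it, a pattern whose share over all genes was not counted. The blocked log2 fold change was 0.29 ± 0.19 (SE, adjusted p = 0.372) for sh900 and -0.41 ± 0.19 (SE, adjusted p = 0.196) for sh902.

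**Figure D3:**
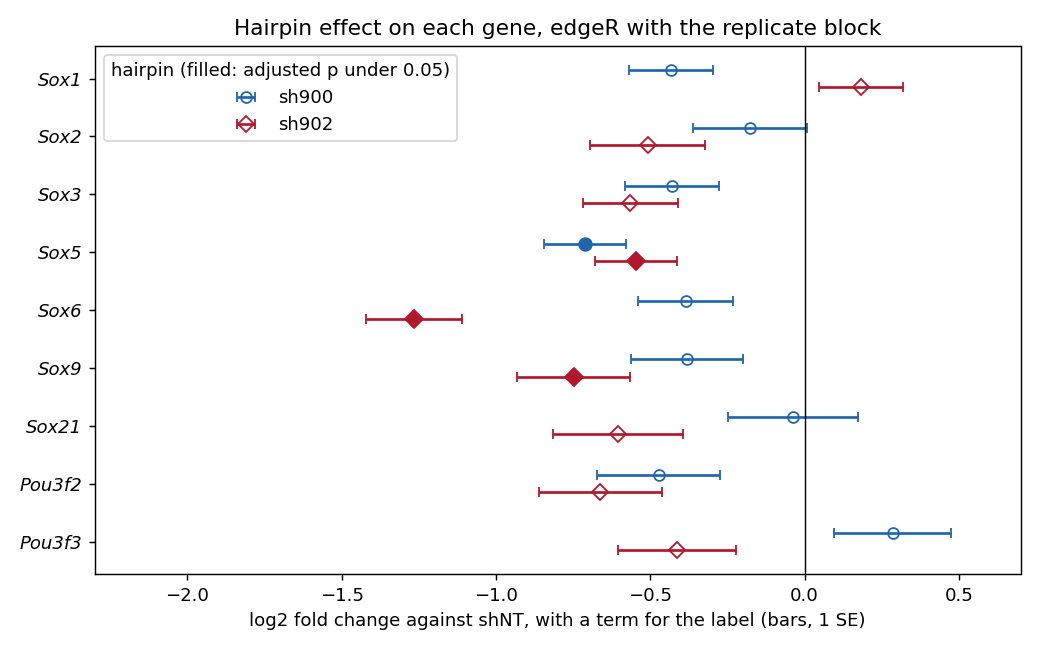
Log2 fold change of each of the 9 genes with sh900 and with sh902 against shNT, from edgeR with the replicate block; bars are standard errors and filled points have an adjusted p under 0.05. Sox5 is filled for both hairpins (-0.71 and -0.55), Sox6 (-1.27) and Sox9 (-0.75) for sh902 alone.

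Set directly against each other, the hairpins differed at Sox1 and Sox6. With the block, Sox6 was lower with sh902 than with sh900 by a log2 difference of -0.88 ± 0.16 (SE, adjusted p = 0.0288), next to the Sox1 difference of 0.62 given above; 1.74% of all genes were called higher and 2.48% lower in this comparison. The direct difference for Pou3f3 was -0.70 ± 0.19 (SE, adjusted p = 0.0818) in edgeR, while DESeq2 with the block called it (0.0264) and limma-voom did not (0.0622). It was for Sox21 -0.57 ± 0.21 (SE, adjusted p = 0.162) and for Sox9 -0.37 ± 0.18 (SE, adjusted p = 0.281). For Sox5 it was 0.17 ± 0.13 (SE, adjusted p = 0.512). Without the block edgeR called 0 genes here, DESeq2 1035 and limma-voom 1. By edgeR 2532 genes, 2 of the members among them, had an unadjusted p under 0.05. Sox6 was among the genes called by DESeq2 (adjusted p = 0.00993). In edgeR with the block, the Sox1 call held only without the undated or the 30 August control, with adjusted p of 0.0581 to 0.243 in the other 7 fits. The Sox6 call in edgeR with the block was lost without the undated sh900 (0.134), 30 August sh900 (0.14), undated sh902 (0.182), 30 August sh902 (0.1) or 3 September sh902 library (0.0708). Without overlap of the libraries, sh902 was above sh900 for Sox1 (11.2% of all genes) and below it for Sox6 and Sox9 (11.3% of all genes). Sox2, Sox6, Sox9, Sox21, Pou3f2 and Pou3f3 were lower with sh902 than with sh900 at 3 of 3 labels, as were 26.6% of all genes. Phf2 itself differed between the hairpins by 0.22 ± 0.19 (SE, adjusted p = 0.55) in this fit.

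With the block, more of these genes were called between the title labels (6) than for the mean of both hairpins (3). The same order held over all genes tested, with 3613 called between the labels and 2054 for the mean. Between 3 September and 30 August, in a model with hairpin group and label, Sox1, Sox2, Sox5, Sox21 and Pou3f3 were higher and Sox3 was lower on 3 September. Of all genes tested 10.4% were called higher and 10.1% lower. Sox5 had the largest of these differences, 1.46 ± 0.13 (SE, adjusted p = 0.00082), and was called in all 9 fits that each left out 1 library. Its 3 September libraries held 112, 71.8 and 86.3 CPM and its 30 August libraries 40.8, 27.5 and 29.95 CPM, in the order shNT, sh900 and sh902. The log2 difference was 0.89 ± 0.21 (SE, adjusted p = 0.0231) for Sox21, 0.79 ± 0.19 (SE, adjusted p = 0.0246) for Pou3f3, 0.71 ± 0.19 (SE, adjusted p = 0.031) for Sox2 and 0.47 ± 0.14 (SE, adjusted p = 0.0452) for Sox1. Sox3 went the other way, at -0.54 ± 0.15 (SE, adjusted p = 0.0405). Pou3f2 was at 0.65 ± 0.20 (SE, adjusted p = 0.0508; 0.0327 by DESeq2), Sox9 at 0.27 ± 0.18 (SE, adjusted p = 0.326) and Sox6 at 0.06 ± 0.15 (SE, adjusted p = 0.801).

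Libraries of the 2 dates did not overlap, with 3 September higher, for Sox2, Sox5, Sox21, Pou3f2 and Pou3f3, as for 16.1% of all genes. In all 3 groups the 3 September library was above the 30 August one for these 5 genes and for Sox1 and Sox9, as for 26.6% of all genes. The 30 August library was the lowest of its group in all 3 groups for Sox1, Sox2, Sox5, Sox21, Pou3f2 and Pou3f3, a pattern found for 13.7% of all genes. Among the leave-one-out fits, Pou3f3 was not called without the 3 September sh900 (adjusted p = 0.053) or 3 September sh902 library (0.0664). Sox21 was not called without the 30 August control (0.0584), the 3 September sh900 (0.0572), the 30 August sh902 (0.0559) or the 3 September sh902 library (0.0785). Sox2 was not called in 5 fits, without either dated control, either dated sh900 library or the 3 September sh902 library (0.0603 to 0.122). Sox1 held only without the undated or the 3 September control (0.068 to 0.143 in the other 7), and Sox3 only without the 30 August or the 3 September sh902 library (0.0567 to 0.207 in the other 7).

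**Figure D4:**
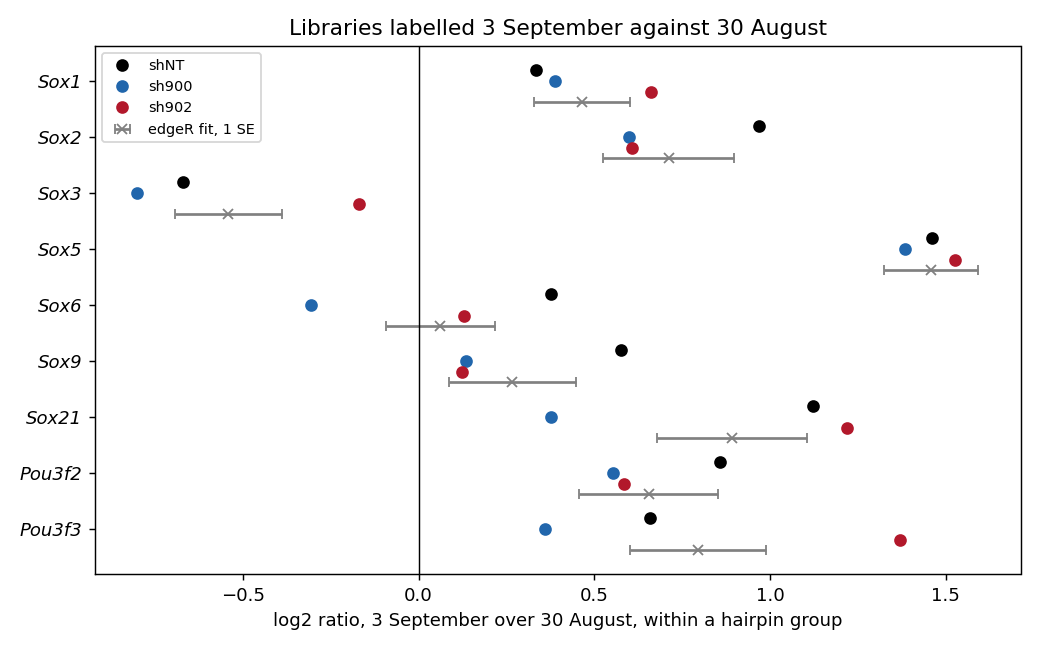
Log2 ratio of CPM between the 3 September and 30 August libraries of each hairpin group (coloured points) for the 9 genes, with the edgeR log2 difference and its standard error (grey cross and bar). The fitted value of Sox5 lies furthest to the right at 1.46, that of Sox6 near 0 at 0.06, and that of Sox3 alone lies to the left of 0, at -0.54.

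Upstream stretches of Sox2, Pou3f2 and Pou3f3 are shown because libraries of the 2 dates did not overlap for these genes and because Sox2 and class III POU proteins are known as partners. The Sox letters given above, the POU octamer (ATGCAAAT) and the CCAAT box (its letters are the name) were sought on both strands, and matches are in capitals, as ATTGG where the CCAAT box lies on the other strand. The stretches of 250 bases end just before the RefSeq start: chr3:34649745-34649994 (plus strand) for Sox2, chr4:22488367-22488616 (minus strand) for Pou3f2 and chr1:42695518-42695767 (plus strand) for Pou3f3.
Sox2: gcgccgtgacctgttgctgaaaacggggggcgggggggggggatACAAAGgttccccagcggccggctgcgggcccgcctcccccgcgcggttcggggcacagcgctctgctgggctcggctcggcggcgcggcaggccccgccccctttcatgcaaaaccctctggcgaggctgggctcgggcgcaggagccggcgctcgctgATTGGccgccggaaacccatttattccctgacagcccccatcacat
Pou3f2: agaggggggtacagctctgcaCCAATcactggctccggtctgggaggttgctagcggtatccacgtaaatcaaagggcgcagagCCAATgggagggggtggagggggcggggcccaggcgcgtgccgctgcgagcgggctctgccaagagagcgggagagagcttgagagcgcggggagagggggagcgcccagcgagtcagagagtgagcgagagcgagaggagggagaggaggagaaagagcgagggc
Pou3f3: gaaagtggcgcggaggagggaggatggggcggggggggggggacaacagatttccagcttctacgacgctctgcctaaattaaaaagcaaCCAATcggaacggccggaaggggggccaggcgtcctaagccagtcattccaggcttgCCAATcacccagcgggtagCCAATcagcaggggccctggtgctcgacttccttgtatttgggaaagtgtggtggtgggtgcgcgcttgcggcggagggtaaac
Sox2 held ACAAAG at -206, found in 16.5% of the 32851 windows of this length, and CCAAT on the opposite strand at -46. CCAAT occurred in Pou3f2 at -229 and -166, and in Pou3f3 at -160, -103 and -84; 33.8% of windows held it at least at 1 place. The octamer, held by 1.6% of windows, was not among the letters of these stretches. Of the 9 members, 7 had a window in the RefSeq table, and Sox3 and Sox9 had none.

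Marker lists of several cell types differed by label or hairpin, not all in 1 direction. The 11 neural stem cell and radial glia markers summed to more in every hairpin library than in the control of its label, with 5916 to 7077 CPM with shNT, 7680 to 13140 CPM with sh900 and 6579 to 9633 CPM with sh902. With the block 2 of these 11 rose and 3 fell in the mean of both hairpins, with a median log2 fold change of -0.44, opposite in sign to the change of the sum. The summed level of 9 astrocyte markers, all of which passed the filter, was 8659 CPM (undated), 1594 CPM (30 August) and 14100 CPM (3 September) with shNT. In the same order it was 2017, 1187 and 7817 CPM with sh900 and 1905, 1189 and 4857 CPM with sh902, so it was lowest on 30 August in every group and, at every label, lower with either hairpin than with shNT. With the block 3 of the 9 fell and 0 rose (median -0.81), and the defining marker Gfap ranged from 8.24 to 1377 CPM. The sum of 11 neuroblast and neuron markers, 10 of which passed the filter, ran from 964 to 2349 CPM with shNT, from 754 to 1287 CPM with sh900 and from 591 to 1099 CPM with sh902, with Dcx between 0.475 and 104 CPM; 7 of the 10 fell and 0 rose in the mean of both hairpins (median -1.57). The sum of 11 oligodendrocyte lineage markers, 10 of which passed, was 2317 to 3086 CPM with shNT, 2395 to 3160 CPM with sh900 and 1338 to 2189 CPM with sh902. Gene by gene, 5 of these 10 fell and 0 rose in the mean of both hairpins (median -1.73), and 3 fell with sh900 (median -1.46), although the sums with sh900 and shNT overlapped. The 10 markers of cycling cells summed to 1022 CPM (undated), 2901 CPM (30 August) and 196 CPM (3 September) with shNT. In the same order they summed to 1348, 696 and 1066 CPM with sh900 and to 1655, 930 and 1495 CPM with sh902. The 30 August library was thus highest with shNT but lowest with either hairpin, an order that a fit adding label and hairpin terms cannot represent. EdgeR with the block called 0 of the 10 in any comparison, with 0 at an unadjusted p under 0.05. The part of these cell types in the values of the Sox and Pou genes was not tested.

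Of the 13 other Sox genes in the list, 7 passed the filter on low counts. With the block 1 of the 7 rose (Sox13) and 4 fell (Sox4, Sox8, Sox10, Sox11) in the mean of both hairpins, with a median log2 fold change of -0.87 against -0.02 for all genes tested. Sox8, a SoxE relative of Sox9, stood at 387 CPM (SD 109.8, n = 3) with shNT, 212 (SD 114, n = 3) with sh900 and 148 (SD 82.2, n = 3) with sh902, and its log2 fold change was -1.25 ± 0.18 (SE, adjusted p = 0.00849). Sox11, a SoxC gene of newly formed neurons, stood at 265 to 291 CPM in the controls against 106 to 196 CPM in the 6 hairpin libraries. It was thus lower without overlap, as were 3.03% of all genes, and its log2 fold change was -0.87 ± 0.14 (SE, adjusted p = 0.0111). Sox4, the other SoxC gene named here, gave -1.05 ± 0.21 (SE, adjusted p = 0.0183). Sox10, the SoxE factor of the oligodendrocyte lineage, gave -1.99 ± 0.47 (SE, adjusted p = 0.0405) from controls that ran from 0.231 CPM on 30 August to 73.1 CPM on 3 September. Sox13, the third SoxD gene, was the exception among the called genes at 0.73 ± 0.19 (SE, adjusted p = 0.0476), opposite in sign to Sox5 and Sox6. Of all 7 tested, 2 had a positive value. Leaving out 1 library in turn, the call of Sox13 was lost in 9 of 9 fits (adjusted p 0.0507 to 0.221), and those of Sox8 and Sox11 only without the undated control (0.0685 and 0.0542). The call of Sox10 held only without the 30 August control or the 30 August sh902 library (0.0779 to 0.225 in the other 7). That of Sox4 was lost without the undated control (0.0904), the 3 September control (0.0527), the undated sh900 (0.0607) or the undated sh902 library (0.0693).

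Among the 13 other POU genes 7 passed the filter, with a median log2 fold change of -0.33; Pou6f1 and Pou2f2 fell in the mean of both hairpins and 0 rose. Pou6f1 gave -0.69 ± 0.11 (SE, adjusted p = 0.0114) and stood at 98.2 CPM (SD 23.3, n = 3) with shNT, 80.1 (SD 19.2, n = 3) with sh900 and 46.9 (SD 15.4, n = 3) with sh902; it was lost only without the undated control (adjusted p = 0.0768). Pou2f2 gave -1.52 ± 0.34 (SE, adjusted p = 0.0286) at 0.0792 to 2.90 CPM, and its call held only without the 30 August control, the 3 September sh900 or the 30 August sh902 library (0.0602 to 0.143 in the other 6). Partners and known or proposed targets of these factors made a list of 30 genes, all of which passed the filter. With the block 3 rose and 11 fell, with a median of -0.49. The 3 that rose were Shh, a secreted patterning ligand, at 4.37 ± 0.51 (SE, adjusted p = 0.00498), the intermediate filament gene Nes at 1.66 ± 0.21 (SE, adjusted p = 0.00628) and the Notch ligand Jag1 at 1.47 ± 0.27 (SE, adjusted p = 0.0164). Among those that fell were Aqp4, the astrocyte water channel, at -2.59 ± 0.38 (SE, adjusted p = 0.0127), Pdgfra, a receptor of oligodendrocyte precursors, at -1.63 ± 0.28 (SE, adjusted p = 0.0159) and the homeobox gene Lhx2 at -0.72 ± 0.14 (SE, adjusted p = 0.0172). Shh was at most 0.365 CPM in the controls, so its fold change rests on few counts there. It passed the filter on low counts through hairpin libraries, where it is high, so its call is not separate support. It ran from 0.198 to 8.84 CPM with sh900, which overlapped the controls, and from 0.940 to 29.3 CPM with sh902. Without the undated control the calls of Aqp4 (adjusted p = 0.0751), Pdgfra (0.0824), Jag1 (0.0857) and Lhx2 (0.0835) were lost. Aqp4 was also lost without the undated sh900 (0.0555), Pdgfra without the undated sh902 (0.0679) and Jag1 without the 3 September sh902 library (0.0558). Lhx2 was lost too without the undated or 30 August sh900 or the undated or 3 September sh902 library (0.0537 to 0.0666). Nes was called in 9 of 9 fits, as was Shh, with few control counts of Shh in each.

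For each member the pair of genes with the most similar profile was sought among 9795 genes with a mean of at least 10 CPM, by Pearson's r of log2 CPM over the 9 libraries. These r values are descriptions of libraries that share labels and composition. Sox2 was followed most closely by Inpp5k (r = 0.995) and Ing4 (r = 0.988), Pou3f2 by Fam171a2 (r = 0.992) and Zscan29 (r = 0.988), and Sox5 by Dhtkd1 (r = 0.989) and Ctdsp2 (r = 0.978). For Sox6 they were Rims2 (r = 0.974) and Kif1a (r = 0.97), for Sox9 Zbtb18 (r = 0.97) and Mical3 (r = 0.967), for Sox21 Nedd4l (r = 0.977) and Atg9a (r = 0.974), and for Pou3f3 Snf8 (r = 0.972) and Mfhas1 (r = 0.97). The lowest first values belonged to Sox1 (Cds2, r = 0.947) and Sox3 (Il17rd, r = 0.948). No gene was named for more than 1 member.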

How the data were processed

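Estimated counts for each gene were deposited by the authors, who used RSEM, STAR 2.5.0a, Trimmomatic 0.36, cutadapt and FastQC on GRCm38, per the submitters' processing notes, which state neither order nor settings. All counts were whole numbers, so rounding changed none. Random-primed libraries with no stated strand, and RSEM's sharing of reads, leave antisense genes and close paralogs uncertain. Of 54232 identifiers, 54165 matched GENCODE M21. The lowest chi-square per degree of freedom between libraries of a group was 52.57, far above that of a repeated library.

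In R 4.3.3, edgeR 4.0.16 fitted all 9 libraries (robust quasi-likelihood, TMM, default filter, 17602 genes with 99.9% of counts, Benjamini-Hochberg over all of them, calls at 0.05). The first fit had no block. Titles pair the dated libraries: deviations from group means correlated at 0.402 to 0.627 within 30 August and 0.456 to 0.645 within 3 September, against 0.0799 to 0.399 among undated libraries and -0.661 to 0.302 between labels. Because each library was centred on the mean of its own group, the low values between labels are partly built in. The undated control correlated more with the 3 September sh900 (0.285) and sh902 (0.302) libraries than with the undated sh900 (0.145) and sh902 (0.0799) libraries. Pairs and blocked values that include undated libraries therefore rest on an unsure pairing. Blocked values stand beside the others because they change calls. DESeq2 1.42.0, limma 3.58.1 (voom), RLE factors, library size alone, no filter, at least 1 CPM in 3 libraries, dated libraries only and each library left out were alternatives. DESeq2 and voom with the block were added after seeing the data.

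The members and lists were chosen with earlier results of these data known. Named were all 9 members, at most 6 called genes per list by smallest adjusted p, the 2 genes most like each member, and the first marker of each list discussed. Scripts were tested on simulated counts. Counts at the depths of these libraries limit precision for genes under about 1 CPM.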

Additional observations from a re-analysis of the deposited data

Results flagged for a closer look

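Sox1 was singled out because the hairpins differed in a direct test with the replicate block: the log2 difference, sh902 minus sh900, was 0.6153 (SE 0.14, adjusted p = 0.0473), with sh902 higher at 3 of 3 labels. Sox6 was singled out by the same test with -0.8799 (SE 0.16, adjusted p = 0.0288), with sh902 lower at 3 of 3 labels. Pou3f3 was singled out because all 3 sh900 libraries lay above and all 3 sh902 libraries below the control of their label. The share of all genes with this pattern was not counted, and both hairpins were set against the same controls. The 3 September sh902 library was at 97.6% of its control. Its direct log2 difference of -0.7 missed the threshold in edgeR with the block (adjusted p = 0.0818) and in limma-voom (0.0622), and passed in DESeq2 (0.0264).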

How the results depend on the processing

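Limits first: 3 libraries a group, a label of unstated meaning, and undated libraries of unsure pairing. The direction of the SoxD values did not depend on any setting tried for the mean of both hairpins, whereas their calls did. Counts below are in the order mean of both hairpins, sh900, sh902, and sh902 against sh900. Against 0 genes and 0 members without the block, edgeR with the replicate block called 2054, 1557, 1850 and 743 genes, with 3, 1, 3 and 1 members lower and 1 higher in the last. The block changed no other member's call. DESeq2 without the block called 755, 786, 848 and 1035 genes, with 1 member lower for the mean, 2 for sh902 and 1 between hairpins; limma-voom called 1 gene between hairpins and 0 elsewhere. With the block, DESeq2 called 3014, 2590, 2833 and 1783 genes (5, 1, 5 and 2 members lower, Pou3f2 among the 5 and Pou3f3 among the 2, and 1 higher in the last), and limma-voom 2502, 1984, 2301 and 1033 (4, 1, 4 and 1 lower, 1 higher). No low-count filter gave 8, 58, 35 and 139 genes, 1 member lower with sh902 and a Pou3f3 mean of 0.017; at least 1 CPM in 3 libraries gave 57 genes between hairpins. The dated libraries alone, with the block, called 1 gene for the mean, 4 for sh900 and 0 members, and sh900 values turned to 0.056 for Sox2 and 0.19 for Sox21. The causes were not tested, except that fewer libraries entered the last fit.

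For the date label, 3613 genes were called; the dated libraries alone gave 2164 with 0 members lower, no hairpin term gave 448 with 1 member higher and 0 lower, and library size alone gave 0 lower. Leaving out each library in turn gave 1090 to 3990 genes, 1 to 6 members higher and 0 to 1 lower, and Sox6 from -0.079 to 0.24. For the hairpins the leave-one-out fits, blocked or not, gave 0 to 3637 genes for the mean, 0 to 2912 for sh900, 0 to 3757 for sh902 and 0 to 1992 between hairpins, with 0 to 5, 0 to 2, 0 to 6 and 0 to 1 members lower and 0 to 1 higher between hairpins. The highest gene counts came without the 30 August control. There edgeR with the block called 5 members lower for the mean and 6 for sh902, against 3 and 3 with all 9 libraries. With the block the mean called 257 genes and 0 members without the undated control. Direction turned within -0.25 to 0.020 for Sox1 and -0.24 to 0.11 for Pou3f3 (mean), -0.44 to 0.063 for Sox2 and -0.40 to 0.17 for Sox21 (sh900), and -0.21 to 0.51 for Sox5 (between hairpins). Scaling by library size alone moved the median log2 value of all genes between the dates from -0.02 to 0.09; there Sox3 stood at -0.43 (adjusted p = 0.062).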
